A study of Mus musculus with 8 samples.

Results

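The genes described here encode the folding, quality control and stress-sensing machinery of the endoplasmic reticulum (ER). The 37 genes were taken by name from a list of ER chaperones and unfolded protein response genes. All 37 have a row among the 24420 symbols of the total RNA table, and 19 of them have a row among the 5804 symbols of the polysomal table. By role they fall into 13 chaperones and folding helpers, 8 members of the protein disulphide isomerase family, 4 genes of stress sensing, 8 genes of ER-associated degradation and 4 genes of translocation. The libraries came from mouse embryos at stage E11.5; the tissue is given as brain in one label and as neural tube in another. The embryos were Lin28a-/-;b-/- (double knockout, dKO) or wildtype (WT). The labels name no Cre driver or promoter and do not say what was deleted in either gene. RNA was either total or polysomal, that is, bound by several ribosomes, which gives 4 groups of 2 libraries: dKO total, WT total, dKO polysomal and WT polysomal. Nothing in the labels says whether the 2 libraries of a group came from separate embryos, and the p-values below therefore rest on library-to-library spread that may be technical.

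Proteins bound for secretion, for membranes or for the ER itself enter the ER through the Sec61 channel while they are being translated. In the lumen they are folded by the Hsp70 chaperone BiP (Hspa5) with its J-domain partners, by the Hsp90 chaperone Grp94 (Hsp90b1) and by the lectin chaperones calreticulin and calnexin, while disulphide isomerases form and rearrange their disulphide bonds. Proteins that fail to fold are sent back to the cytosol and destroyed by ER-associated degradation. When unfolded proteins build up, the sensors Ire1 (Ern1), Atf6 and Perk (Eif2ak3) start the unfolded protein response, which raises transcription of chaperone genes through Atf6 and the spliced form of Xbp1. In mouse embryonic stem cells, Lin28a has been described as an RNA-binding protein that binds mRNAs translated at the ER and lowers their translation.

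Total counts were 15768767 and 15612883 in dKO and 15650360 and 15060560 in WT total RNA libraries. The listed genes of the polysomal table summed to 3740980 and 5164982 counts in dKO and 14874143 and 15414712 in WT, which is not the depth of those libraries. Lin28a was at 6.55 and 7.73 CPM (counts scaled to the size of the library) in dKO total RNA, against 73.3 and 72.2 CPM in WT, and Lin28b was at 48.0 and 55.1 CPM in dKO, against 128 and 123 CPM in WT. Of the marker lists, red cell genes (14, of which 9 were tested) differed most in summed level, with sums of 2701 and 2696 CPM in dKO, against 4416 and 4482 CPM in WT. Of these genes 7 were called lower, and 4 of the 14 were at 0 in every library. Summed levels in dKO and WT were 725 to 732 and 762 to 803 CPM for mesenchyme, 204 to 212 and 203 CPM for endothelium, 53.4 to 58.9 and 52.4 to 54.7 CPM for macrophages, and 174 to 179 and 154 to 157 CPM for choroid plexus. They were 4231 to 4276 and 4620 to 4670 CPM for neural progenitors and 4579 to 4601 and 4773 to 4774 CPM for neurons. Sums follow the most abundant genes of a list. Called lower and higher were 5 and 1 of 13 mesenchyme genes and 1 and 1 of 10 macrophage genes. For neural progenitors they were 5 and 3 of 12, for neurons 4 and 4 of 12, and for choroid plexus 0 and 2 of 6. No endothelial gene was called. Among all genes tested, 16% were lower and 14.7% higher. Ttr of the choroid plexus list was at 38.2 and 37.4 CPM in dKO, against 9.55 and 12.3 CPM in WT. Xist was at 106 and 111 CPM in dKO and 162 and 169 CPM in WT, and the Y-linked gene Ddx3y at 33.3 and 38.7 CPM in dKO and 23.9 and 25.9 CPM in WT. The part of tissue makeup and of the mix of sexes in the ER gene differences was not tested, and in bulk tissue fewer cells of a type cannot be told apart from less RNA per cell.

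Some promoters of these genes carry a known element of the ER stress response. The genes were chosen by name, without reading promoter sequence. A list named for the unfolded protein response may hold genes known for this element, so its share below is a description and not independent evidence. The ER stress response element (ERSE), through which Atf6 acts together with the factor NF-Y, was searched as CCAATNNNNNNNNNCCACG on both strands. The window ran from 250 bases before to 50 bases after each transcription start in RefSeq (GRCm38.p6). The element was found for 9 of the 31 members with a promoter in that table (29%), against 37 of all 27025 genes (0.137%). The windows are shown because they mark which of the genes below carry the element; each reads 5′ to 3′ on the strand of the gene, and the capitals mark the CCAAT and CCACG ends, or their reverse complements ATTGG and CGTGG.

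Calr, chr8:84847067-84847101, minus strand: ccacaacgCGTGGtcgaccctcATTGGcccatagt
Canx, chr11:50325792-50325826, minus strand: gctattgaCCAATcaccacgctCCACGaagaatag
Creld2, chr15:88819512-88819546, plus strand: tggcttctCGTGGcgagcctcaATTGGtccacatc
Derl3, chr10:75893234-75893268, plus strand: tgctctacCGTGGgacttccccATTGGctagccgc
Dnajc3, chr14:118937819-118937853, plus strand: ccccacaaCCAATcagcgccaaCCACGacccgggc
Hsp90b1, chr10:86705630-86705664, minus strand: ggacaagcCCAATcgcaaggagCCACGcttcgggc
Hsp90b1, chr10:86705525-86705559, minus strand: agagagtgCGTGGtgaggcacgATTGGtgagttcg
Hspa5, chr2:34772017-34772051, plus strand: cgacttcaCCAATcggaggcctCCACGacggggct
Pdia6, chr12:17266483-17266517, plus strand: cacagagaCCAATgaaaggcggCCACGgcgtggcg
Syvn1, chr19:6046524-6046558, plus strand: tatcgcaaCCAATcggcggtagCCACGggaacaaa

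In Hsp90b1 the element occurred at 2 separate places, one in each direction, and in Calr, Creld2 and Derl3 it lay in the reverse direction. The best known of these promoters is that of Hspa5, shown whole with the element found by the search in capitals.

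Hspa5, chr2:34771840-34772139, plus strand: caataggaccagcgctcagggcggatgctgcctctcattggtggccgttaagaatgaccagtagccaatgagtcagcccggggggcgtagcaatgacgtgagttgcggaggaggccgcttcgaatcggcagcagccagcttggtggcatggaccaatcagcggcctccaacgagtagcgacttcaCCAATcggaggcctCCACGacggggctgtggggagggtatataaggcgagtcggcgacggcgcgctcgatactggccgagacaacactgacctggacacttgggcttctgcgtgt

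A shorter variant, ERSE-II, searched as ATTGG, any base, then CCACG on both strands, was found for 2 members, against 12 of all genes (0.0444%). The capitals mark the whole element.

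Dnajb11, chr16:22857844-22857870, plus strand: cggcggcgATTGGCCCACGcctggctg
Herpud1, chr8:94386369-94386395, plus strand: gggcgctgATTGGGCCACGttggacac

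The Xbp1 and Atf6 element TGACGTGG (both strands) was found for 1 member, Txndc5, against 193 of all genes (0.714%), and is in capitals here.

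Txndc5, chr13:38528037-38528060, minus strand: ctcgccgcTGACGTGGcgctagcc

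A match of letters is a description of the sequence and does not show that a factor binds there.

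In total RNA the most abundant folding enzymes of the ER lumen were lower in dKO than in WT. Pdia6 fell by 30.7% and Hspa5 fell by 25.5%. Pdia4 fell by 24.4%, Pdia3 fell by 23.2% and Calr fell by 20.5%. Among genes of stress sensing and degradation there were 2 rises and 1 fall, and no translocation gene was called. Of the 37 genes, all of which passed the filter on low counts, 11 (29.7%) fell and 3 (8.11%) rose by the edgeR quasi-likelihood test at an adjusted p of 0.05. Among all 14594 genes tested, 16% fell and 14.7% rose (30.7% called in all). The median log2 fold change was -0.09 over the 37 genes and 0.00 over all genes tested, and the range over the 37 was -0.53 to 0.23. Together their transcripts summed to 5222 and 5218 CPM in dKO, against 5826 and 5806 CPM in WT, so that the sum fell by 10.2%. The dKO and WT libraries did not overlap for 29 of the 37 genes (78.4%), against 62.3% of all genes tested.

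**Figure D1:**
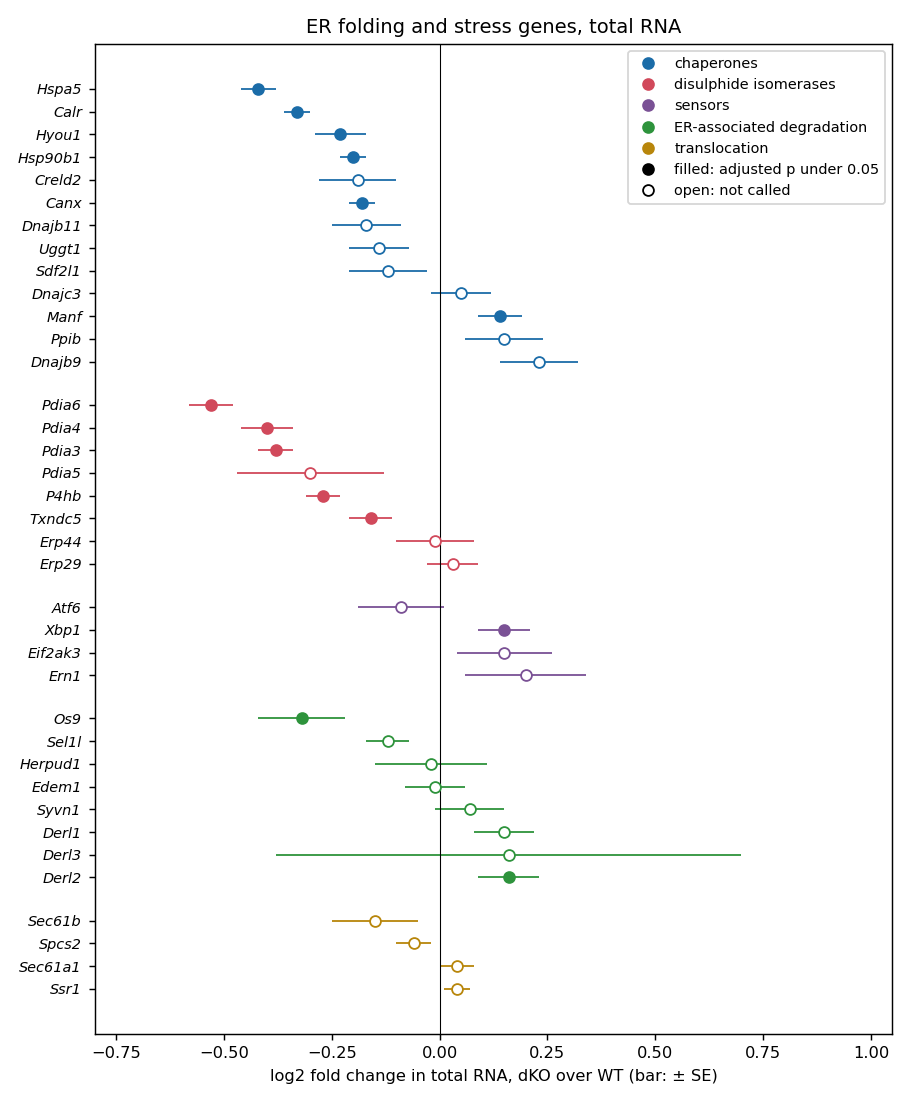
Log2 fold changes of the 37 ER genes in total RNA, dKO over WT (n = 2 libraries per genotype; bars are ± SE from the edgeR fit), grouped by role. Filled points passed an adjusted p of 0.05; they are 5 falls and 1 rise among chaperones, 5 falls among disulphide isomerases, 1 rise among sensors, and 1 fall and 1 rise among degradation genes.

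Of the 13 chaperones and folding helpers, 5 fell and 1 rose (median log2 fold change -0.17). Hspa5 (chr2:34771970-34777547, plus strand, GENCODE M21 on GRCm38) encodes BiP, the Hsp70 of the ER and the best known target of the unfolded protein response. Its level was 274 and 274 CPM in dKO, against 369 and 367 CPM in WT. The genotypes were far apart and the libraries of each nearly equal, and the log2 fold change was -0.42 ± 0.04 (± SE here and below; edgeR, adjusted p = 2.14e-28). Calr (chr8:84841850-84846934, minus strand), the lumenal lectin chaperone and calcium store, had 327 and 321 CPM in dKO, against 411 and 404 CPM in WT, a log2 fold change of -0.33 ± 0.03 (adjusted p = 1.54e-19). An annotated Calr pseudogene exists, and how the counting treated reads that map to several places is not given in the sources used here. Calnexin (Canx), the membrane-bound partner of calreticulin, was at 649 and 643 CPM in dKO, against 731 and 728 CPM in WT, which made it the gene with the most counts of the 37. Its log2 fold change was -0.18 ± 0.03.

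The Hsp90 of the ER, Hsp90b1, matures a narrow set of clients such as integrins and Toll-like receptors. It was at 428 and 436 CPM in dKO, against 496 and 497 CPM in WT (log2 fold change -0.20 ± 0.03, adjusted p = 3.85e-09, edgeR). Hyou1, a large Hsp70-like protein that exchanges nucleotide on BiP, had 93.7 and 95.7 CPM in dKO and 116 and 106 CPM in WT. Its fall (log2 fold change -0.23 ± 0.06, adjusted p = 0.00137) was lost without WT replicate 1 (-0.17, adjusted p = 0.104). Manf, a secreted survival factor that holds on to BiP, was the only chaperone called higher, at 154 and 150 CPM in dKO, against 131 and 145 CPM in WT (0.14 ± 0.05, adjusted p = 0.0287). That call was lost under DESeq2 and without 3 of the 4 libraries in turn.

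The remaining 7 helpers were not called. Of the J-domain partners of BiP, Dnajb9, which turns BiP toward Ire1 and toward degradation, had 45.9 and 47.9 CPM in dKO, against 39.3 and 40.9 CPM in WT. All dKO libraries lay above all WT libraries, at a log2 fold change of 0.23 ± 0.09 (adjusted p = 0.0557, edgeR); it was called with upper-quartile scaling, with a floor of 5 CPM and after an adjustment for transcript length. It was not called with DESeq2, with any of the 4 libraries left out or after the GC adjustment, where its log2 fold change was 0.14 (adjusted p = 0.292). Dnajb11, a lumenal J-domain chaperone, was at -0.17 ± 0.08 and Dnajc3, which also inhibits eIF2α kinases, at 0.05 ± 0.07. Uggt1, which re-glucosylates unfolded glycoproteins for another round with calnexin, was at -0.14 ± 0.07. It was called lower after the length adjustment (-0.23, adjusted p = 0.00819) and without dKO replicate 2 (-0.26, adjusted p = 0.0257), but its difference nearly vanished without dKO replicate 1 (-0.03, adjusted p = 0.838). Sdf2l1, a partner of Dnajb11, was at -0.12 ± 0.09, and the prolyl isomerase gene Ppib at 0.15 ± 0.09. Creld2, an ER stress-induced protein with isomerase activity, had 42.1 and 40.3 CPM in dKO, against 54.1 and 40.2 CPM in WT. Here the WT libraries spanned the dKO values, and the log2 fold change was -0.39 without WT replicate 2 (adjusted p = 0.00353), 0.03 without WT replicate 1 (adjusted p = 0.894) and -0.19 ± 0.09 with all libraries (adjusted p = 0.107), so that the choice of WT library set both its sign and its call.

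Of the 8 disulphide isomerases, 5 fell and none rose (median log2 fold change -0.29; at an unadjusted p of 0.05 also 5 lower and 0 higher, and the same counts with DESeq2). Their transcripts summed to 1253 and 1243 CPM in dKO, against 1535 and 1520 CPM in WT. Pdia6 (chr12:17266545-17284770, plus strand), which reduces disulphides of Ire1 and of other BiP clients, was at 148 and 146 CPM in dKO, against 206 and 219 CPM in WT. At -0.53 ± 0.05 (adjusted p = 2.45e-26, edgeR) it had the largest difference of the 37 genes. Pdia4 (Erp72), an isomerase with an additional active site, had 104 and 100 CPM in dKO, against 133 and 137 CPM in WT (-0.40 ± 0.06). Pdia3 (Erp57), which works with calnexin and calreticulin on glycoproteins, had 307 and 306 CPM in dKO, against 404 and 394 CPM in WT (-0.38 ± 0.04).

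The namesake of the family, P4hb, is also the beta subunit of prolyl 4-hydroxylase and had 324 and 330 CPM in dKO, against 396 and 391 CPM in WT (-0.27 ± 0.04). Txndc5, with 185 and 179 CPM in dKO and 207 and 200 CPM in WT, was lower by a smaller step (-0.16 ± 0.05, adjusted p = 0.0029, edgeR). Its call was lost without WT replicate 1 or without dKO replicate 2 (adjusted p = 0.0519 to 0.0889). The low-level isomerase gene Pdia5 was at -0.30 ± 0.17 and not called, with 11.8 and 10.1 CPM in dKO and 15.1 and 11.8 CPM in WT. Erp29, which lacks the active-site cysteines of its relatives, and Erp44, which retrieves proteins such as Ero1 from the early Golgi, were at 0.03 ± 0.06 and -0.01 ± 0.09 and not called.

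**Figure D2:**
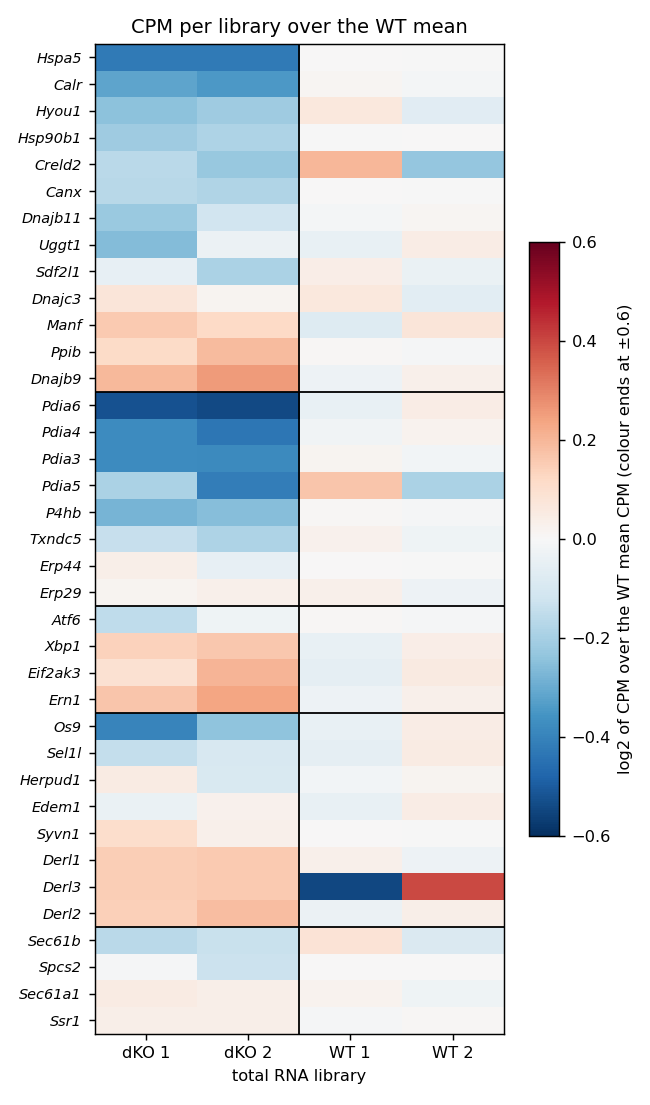
Colour gives the log2 ratio of CPM in each total RNA library to the mean of the WT libraries, with genes in rows by role and the 2 dKO libraries left of the 2 WT libraries. Hspa5, Calr, Pdia6, Pdia4, Pdia3 and P4hb are evenly blue in dKO and near 0 in WT, while Creld2, Pdia5 and Derl3 vary as much between the WT libraries as between genotypes.

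Among the 4 genes of stress sensing none fell (0 also at an unadjusted p of 0.05 and with DESeq2), and 1 rose. Xbp1, whose mRNA is cut by Ire1 to make an active transcription factor, had 109 and 111 CPM in dKO, against 96.2 and 102 CPM in WT. Its rise of 0.15 ± 0.06 (adjusted p = 0.0455, edgeR) lay close to the threshold and was lost under DESeq2, with no filter on low counts and without either dKO library or WT replicate 1. Counts per gene do not separate the cut from the uncut form. Ern1, the kinase and nuclease that cuts it, was at 0.20 ± 0.14, Eif2ak3, the kinase that dampens translation, at 0.15 ± 0.11, and Atf6, the membrane-bound transcription factor, at -0.09 ± 0.10. None of these 3 was called; their WT levels were 15.5 to 42.9 CPM, which overlaps the range of low-level helpers such as Dnajb9.

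Of the 8 degradation genes, 1 fell and 1 rose (median log2 fold change 0.03). Os9, a lectin that hands glycoproteins to the ubiquitin ligase complex, had 33.2 and 37 CPM in dKO, against 42.4 and 45.1 CPM in WT (-0.32 ± 0.10, adjusted p = 0.00666, edgeR). The call was lost without dKO replicate 1 or WT replicate 2. Derl2, a derlin of the retrotranslocation complex, had 94.2 and 97.1 CPM in dKO, against 83.3 and 87.5 CPM in WT (0.16 ± 0.07, adjusted p = 0.0441), and this call was lost under DESeq2, with no filter, after the GC adjustment and without any 1 of the 4 libraries. Its relative Derl1 was at 0.15 ± 0.07 (adjusted p = 0.0617), and Derl3 was close to absent, with 21 and 21 counts in dKO and 13 and 24 in WT.

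Syvn1, the ubiquitin ligase Hrd1 at the core of the complex, was at 0.07 ± 0.08, and its partner Sel1l at -0.12 ± 0.05 (adjusted p = 0.0787). Sel1l was called lower without WT replicate 1 and after the length adjustment. Herpud1, a stress-induced scaffold of the complex, was at -0.02 ± 0.13, and Edem1, which trims mannoses off misfolded glycoproteins, at -0.01 ± 0.07. Of the 4 translocation genes none was called by edgeR, by DESeq2 or at an unadjusted p of 0.05. The channel subunit Sec61a1 had 286 and 283 CPM in dKO and 281 and 272 CPM in WT (0.04 ± 0.04), and Ssr1, a subunit of the translocon-associated complex, 406 and 406 CPM in dKO and 394 and 398 CPM in WT (0.04 ± 0.03). Spcs2, of the signal peptidase, was at -0.06 ± 0.04 and the small channel subunit Sec61b at -0.15 ± 0.10.

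Levels per length differed widely among the 37. On the scale of CPM per kb of the longest coding transcript, Calr, Hsp90b1, Canx, Pdia3 and P4hb were at 148, 153, 151, 111 and 114 in dKO, against 187, 176, 170, 144 and 138 in WT. Derl3 was lowest at 1.02 in dKO and 0.915 in WT, below Ern1 at 2.63 and 2.28. The 7 genes with the highest WT level per kb (these 5, Hspa5 and Pdia6) all fell, whereas Sec61a1, next in order at 89.7 in dKO and 87.3 in WT, was not called. Across the 37 genes the log2 fold change and the WT level per kb had a Spearman rho of -0.50, against -0.126 across 14472 genes; genes are not replicates, the same WT libraries enter both measures, and genes with more counts are called more readily.

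**Figure D3:**
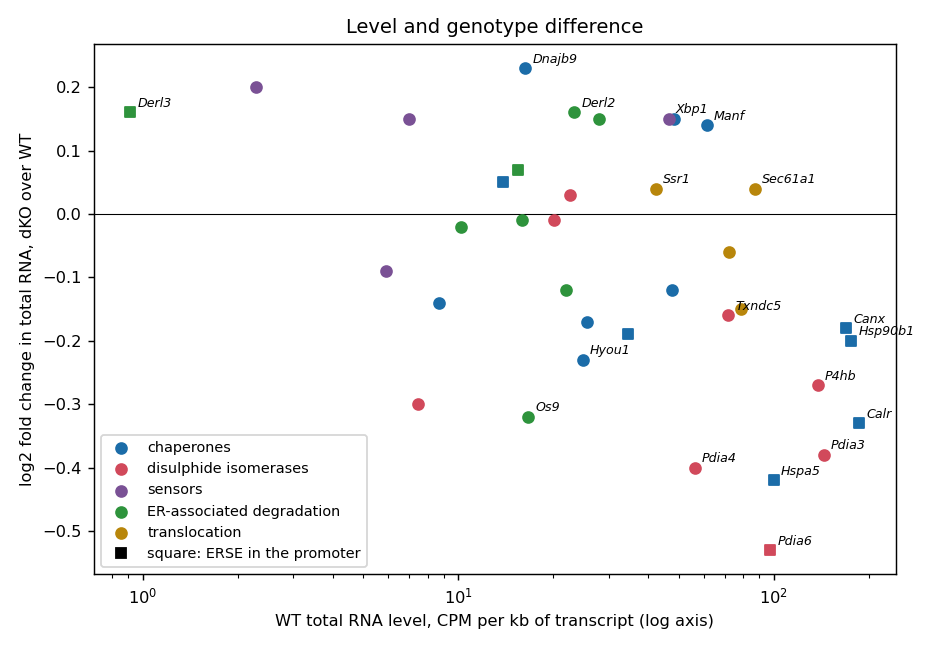
Each point is 1 of the 37 genes, with the WT level in CPM per kb of transcript on a log axis and the log2 fold change in total RNA, dKO over WT, on the vertical axis; colours mark roles and squares the genes with an ERSE. The 7 genes with the highest WT levels, 97.5 (Pdia6) and above, all lie below 0, and the highest WT level among the genes that rose is 61.4 (Manf).

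Calls in total RNA were also counted by promoter element, beside 16% lower and 14.7% higher among all genes tested. Of the 9 genes with an ERSE, 5 fell (Hspa5, Hsp90b1, Calr, Canx and Pdia6) and none rose, with a median log2 fold change of -0.19; Creld2, Dnajc3, Syvn1 and Derl3 were not called. At an unadjusted p of 0.05 and with DESeq2 also none of the 9 was higher. Of the 22 members with a promoter in the table and no exact match to the ERSE, 5 fell and 2 rose (median -0.09), Pdia3, Pdia4 and P4hb among the falls. These 22 include Dnajb11 and Herpud1, which have an ERSE-II, and Txndc5, a further fall, which has TGACGTGG. The 5 ERSE genes that fell were also among the 7 with the highest WT level per kb, and the part of level was not tested. Outside the 37 genes, 28 genes carried the element, of which 8 were tested in total RNA. Of these, Pan2, a subunit of a deadenylase, was lower (-0.33 ± 0.10, adjusted p = 0.00311, edgeR) and the other 7 were not called. This count was made after the values were seen.

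Other ER genes went both ways. Of 100 tested in a list of 103 further genes of the ER, 21 (21%) fell and 8 (8%) rose, with a median log2 fold change of 0.00. The shares among all genes tested were 16% and 14.7%. By group, 3 of 19 translocation genes fell and 3 rose, 3 of 12 N-glycosylation genes fell and 1 rose, 4 of 17 glycan-trimming and folding genes fell and none rose, 3 of 10 oxidative folding genes fell and 1 rose, 4 of 23 degradation genes fell and 3 rose, and 4 of 19 signalling genes fell and none rose. The 10 largest differences among those called included Ero1l, the oxidase that recharges disulphide isomerases, with 45.8 and 41.0 CPM in dKO, against 66.3 and 59.4 CPM in WT (-0.54 ± 0.09). Rpn1, a subunit of the oligosaccharyltransferase, had 88.6 and 90.6 CPM in dKO, against 123 and 130 CPM in WT (-0.50 ± 0.06). Srp68 of the signal recognition particle (-0.46 ± 0.08), the degradation ATPase gene Vcp (-0.45 ± 0.12), Traf2, which binds active Ire1 (-0.43 ± 0.13), the glucosidase gene Mogs (-0.36 ± 0.10) and the ER-anchored transcription factor gene Creb3 (-0.32 ± 0.12) were also lower. Those higher were Sec11c of the signal peptidase (0.57 ± 0.17), Ube2j1, an ER-anchored ubiquitin-conjugating enzyme (0.38 ± 0.05), and Ngly1, which strips glycans from retrotranslocated proteins (0.36 ± 0.13).

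Chaperones outside the ER fell as well. Of 17 tested in a list of 20 cytosolic and mitochondrial chaperones and cochaperones, 13 (76.5%) fell and none rose (median log2 fold change -0.26). Among all genes tested, 16% fell and 14.7% rose. They included the inducible cytosolic Hsp90 gene Hsp90aa1 (-0.61 ± 0.07), the cochaperone gene Stip1 (-0.58 ± 0.06) and the mitochondrial Hsp70 gene Hspa9 (-0.45 ± 0.05). Falls among chaperones were therefore not limited to the ER, and whether they differ between compartments was not tested.

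The polysomal comparison asked how the same transcripts differed on ribosomes. All 19 members in that table were called, 9 (47.4%) higher and 10 (52.6%) lower in dKO, against 47.2% higher and 52.5% lower (99.7% called in all) of 5777 listed genes tested, so the share is that of the table as a whole. The dKO and WT libraries did not overlap for any of the 19, nor for any listed gene (100% without overlap). Of 5441 listed genes averaging 100 counts or more, none had a log2 ratio of summed dKO to summed WT counts between -2.04 and -1.71. The table thus holds genes selected on their genotype difference, the tests are conditional on that selection, and CPM here is relative to the listed genes only. Hspa5, Calr, Pdia3, Pdia6 and 14 other members were not analysed on polysomes.

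Higher on dKO polysomes were isomerase, stress-sensing and degradation genes alongside 3 helpers. Erp29 stood out at 470 and 438 CPM in dKO, against 168 and 171 CPM in WT, a 2.67-fold difference (log2 fold change 1.42 ± 0.07, adjusted p = 8.6e-05, edgeR). Creld2 was at 185 and 172 CPM in dKO, against 80.6 and 82.6 CPM in WT (1.13 ± 0.09). Syvn1 (0.78 ± 0.10), Eif2ak3 (0.72 ± 0.12), Ppib (0.60 ± 0.10), Os9 (0.59 ± 0.16), Hyou1 (0.45 ± 0.08), Xbp1 (0.39 ± 0.07) and P4hb (0.25 ± 0.06) followed. Both genes of the stress-sensing group in the table, the sensor Eif2ak3 and the transcription factor gene Xbp1, were thus among the 9. After the GC adjustment described below, Eif2ak3 stayed higher (0.57) and Xbp1 (-0.03) was not called. The calls of Os9, P4hb and Xbp1 were lost without either WT library (adjusted p = 0.0512 to 0.135 over the 3 genes).

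Lower on dKO polysomes were the 3 translocation genes in the table and 2 of the most abundant chaperones. Sec61b was at 17.1 and 18.7 CPM in dKO, against 73.3 and 74.1 CPM in WT, a 4.10-fold difference (log2 fold change -2.04 ± 0.14, adjusted p = 0.000128, edgeR). Erp44 was at 21.2 and 19.5 CPM in dKO, against 86.4 and 78.7 CPM in WT (-2.03 ± 0.14). Dnajb9 was at 17.1 and 18.3 CPM in dKO, against 56.4 and 59.8 CPM in WT (-1.71 ± 0.15). Each of these 3 was thus more than 3-fold lower. Their genotypes did not overlap, which holds for every listed gene and follows the selection of the table. Derl2 (-1.27 ± 0.17), Ssr1 (-0.97 ± 0.14), Spcs2 (-0.76 ± 0.09), Canx (-0.55 ± 0.05), Pdia4 (-0.37 ± 0.09), Manf (-0.32 ± 0.07) and Hsp90b1 (-0.31 ± 0.06) completed the 10. Ssr1 differed between the dKO libraries, at 275 and 375 CPM, against 659 and 624 CPM in WT. The calls of Hsp90b1, Manf and Pdia4 were lost under another scaling and with a library left out (without WT replicate 1 for all 3, and without WT replicate 2 for Manf and Pdia4). With RLE size factors the median over all listed genes was -0.11 (-0.35 with TMM), and the log2 fold changes of Hsp90b1, Manf and Pdia4 were -0.075, -0.086 and -0.13 and not called.

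Markers of other cell types and of sex were counted on polysomes as well. Of all listed genes tested, 99.7% were called, 47.2% higher and 52.5% lower. A call of a listed marker is therefore not particular to its cell type. Of the listed marker genes tested, 7 of 9 for mesenchyme were higher and 2 lower (median log2 fold change 1.15), and 6 of 6 for red cells were lower (median -1.32). For neural progenitors 7 of 10 were higher and 3 lower, for neurons 1 of 8 was higher and 6 lower, and for endothelium 3 of 4 were higher and 1 lower. The choroid plexus list had 1 gene higher and 1 lower, and the macrophage list had 1 gene, lower. Xist was at 35.0 and 53.8 CPM in dKO, against 233 and 252 CPM in WT. Ddx3y was at 13.5 and 10 CPM in dKO, against 35.2 and 32.5 CPM in WT, the opposite direction to total RNA (log2 fold changes -1.54 and 0.53). Across all listed genes the direction went with the GC content of the transcript (Spearman rho 0.773). The part of GC content in the marker differences was not tested. Nor was the part of cell types and sex in the polysomal differences of the ER genes.

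**Figure D4:**
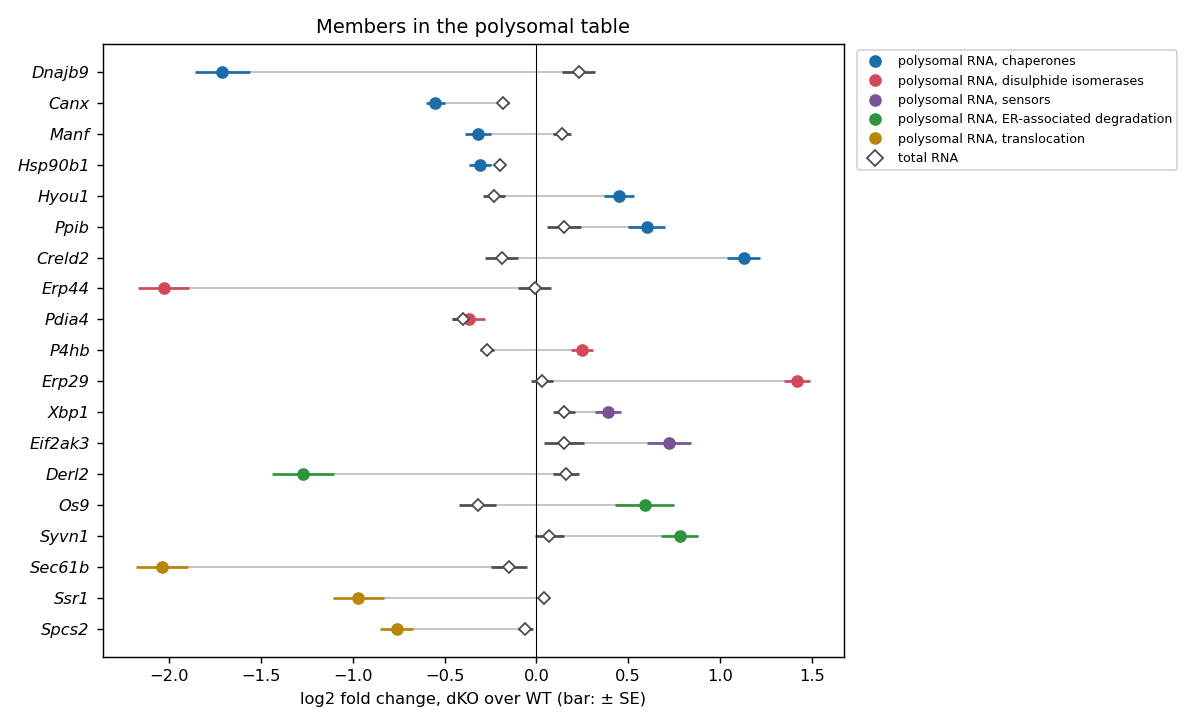
Log2 fold changes, dKO over WT, of the 19 members in the polysomal table (circles, polysomal RNA) beside those in total RNA (open diamonds); bars are ± SE, n = 2 libraries per group. Total RNA values stay between -0.40 and 0.23, whereas polysomal values run from -2.04 to 1.42.

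The direction on polysomes went with the base composition of the transcript. The 9 higher members had transcripts of 46.1 to 57.4% GC (median 53.8%), and the 10 lower ones of 40.6 to 51.4% (median 44.2%). Among all listed genes the medians were 56.2% for those higher and 43.9% for those lower. Across the 19 members GC content and log2 fold change had a Spearman rho of 0.653, and across 5741 listed genes of 0.773; the points share the same 4 libraries. In total RNA the rho was -0.0334 over the 37 genes and -0.0956 over 14472 genes.

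With each library adjusted for GC content by a loess curve, 12 of the 19 were called, 6 higher and 6 lower. Of all 5777 listed genes tested, 2741 were called after it. The curve was fitted to each library's log2 CPM minus the WT mean of its fraction, by GC content. Adjusted values are therefore relative to listed genes of like GC content. Of the 10 lower, 5 kept the call, and of the 9 higher, 4 did. Sec61b (-2.22), Erp44 (-0.89), Dnajb9 (-0.47), Manf (-0.45) and Spcs2 (-0.31) remained lower and Erp29 (2.07), Eif2ak3 (0.57), Creld2 (0.48) and Ppib (0.31) higher, as log2 fold changes. Relative to listed genes of like GC content, Hsp90b1 (0.61) and Canx (0.54) turned to higher and P4hb (-0.28) to lower, each called. The GC content used is that of the longest coding transcript, 46.1% for Erp29, whose other coding transcript has 58.9%, and 51.4% for Sec61b, whose others reach 59.4%. Which transcript was sequenced cannot be told from counts per gene.

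**Figure D5:**
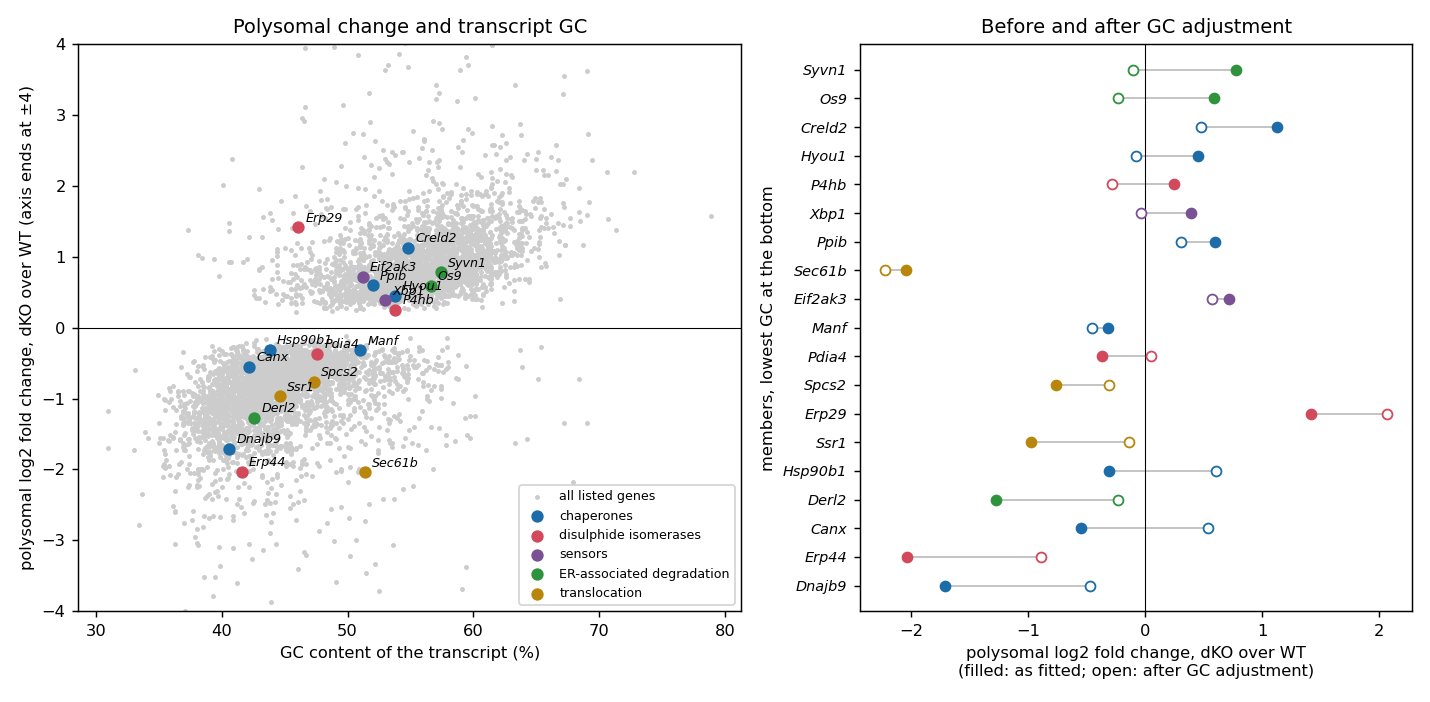
Left, polysomal log2 fold change, dKO over WT, against the GC content of the longest coding transcript for all listed genes (grey) and the 19 members (coloured by role); right, each member before (filled) and after (open) the GC adjustment. Sec61b (51.4% GC) and Erp29 (46.1% GC) keep their direction with the adjustment, while Hsp90b1, Canx and P4hb cross 0 and stay called. Adjusted values are relative to listed genes of like GC content.

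In the fit over all 8 libraries, WT polysomal RNA was set against WT total RNA for the 5780 genes tested in both tables. Of the 19 members 1 was called, Manf, higher on polysomes by 0.41 ± 0.06 on the log2 scale (adjusted p = 0.00193, edgeR), against 12% of all genes called (3.48% higher and 8.51% lower). The other 18 lay between -0.41 and 0.29. Since all 4 groups share 1 estimate of the spread, the count depends on the dKO polysomal libraries too. With either of them left out, more of the members and more of all genes tested were called. The log2 value of Ssr1, for example, was then 0.119 to 0.123, against 0.12 with all libraries.

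The difference of the genotype effects between fractions, polysomal minus total, was tested in the same fit. It was called for 17 of the 19 members, 9 higher and 8 lower, against 89.5% of all genes tested (43.7% higher and 45.8% lower). Before any adjustment for GC content it was largest for Erp44 (-1.98 ± 0.15), Dnajb9 (-1.89 ± 0.16), Sec61b (-1.85 ± 0.16) and Erp29 (1.43 ± 0.08, adjusted p = 6e-07, edgeR). For Dnajb9 the total RNA level was higher in dKO (not called) while the polysomal level was lower. P4hb, Hyou1 and Os9 were called lower in total and higher in polysomal RNA of dKO, and Manf and Derl2 higher in total and lower in polysomal RNA. Hsp90b1 (-0.07 ± 0.07) and Pdia4 (0.07 ± 0.11) were not called. After the GC adjustment 10 of the 19 were called, 5 higher and 5 lower, against 2408 of all 5780 genes tested. The order changed as well. Sec61b (-2.08) and Erp29 (2.0) were then largest, while Erp44 was at -0.89 and Dnajb9 at -0.68. P4hb (-0.01), Hyou1 (0.16), Os9 (0.1) and Derl2 (-0.42) were no longer called after the adjustment, and Manf stayed lower (-0.61). Hsp90b1 (0.78, adjusted p = 1.28e-06) and Pdia4 (0.41, adjusted p = 0.0111) were called higher after it, and Canx was higher too (0.71).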

How the data were processed

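Libraries were made from Trizol-isolated RNA with a kit that keeps strand (NEBNext Ultra Directional), per the labels' protocols. The submitters' processing notes name the tools HTSeq, TopHat and FastQC and 3 builds (mm9, mm10, GRCm38), with no version, role or order. For the counting, annotation and strand setting were not given in the sources used here. Deposited values are raw read counts per gene symbol, 1 table for total and 1 for polysomal RNA, and all their columns were used. Total counts per library, given above, limit the precision of low genes.

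Counts were fitted on each whole table with edgeR 4.0.16 (TMM scaling, filterByExpr, quasi-likelihood F test) in R 4.3.3, with Benjamini-Hochberg adjustment over all genes tested and a threshold of 0.05. Genotype comparisons used the 4 libraries of a fraction; the comparison between fractions and the interaction used all 8 libraries and the 5802 shared genes. SE is the absolute log2 fold change over the square root of F. Values are CPM on TMM-scaled library sizes. Transcript length and GC content came from the longest coding transcript in GENCODE M21 (98.3% of total and 99.4% of polysomal rows matched), promoters from RefSeq (GRCm38.p6). In both tables some symbols had been turned into dates (27 and 14 rows); the 4 and 1 that could not be told apart were left out of joins. Functions were tested on simulated data.

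The members and lists, and the rule for naming other genes (the 10 largest differences among called ER genes), were chosen with earlier results of these data known. Alternatives were DESeq2 1.42.0, limma-voom (limma 3.58.1), upper-quartile or RLE scaling, no filter, a mean of 5 CPM, a replicate block, each library left out, loess adjustments for GC and length (span 0.5), all 8 libraries for total RNA, an adjusted p of 0.01, and a polysomal scaling with the empty interval of ratios at 0. Replicates were compared by chi-square per degree of freedom, which was 2.88 in dKO total, 3.19 in WT total, 24.8 in dKO polysomal and 2.89 in WT polysomal RNA, so no pair was a single library.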

Additional observations from a re-analysis of the deposited data

Results flagged for a closer look

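The genotype difference differed between polysomal and total RNA for 17 of the 19 members, by the test of that difference in the fit over all 8 libraries. Among all genes tested the share was 89.5%, so the count is close to that of the genes as a whole. The values, polysomal minus total on the log2 scale, were above 0 for Erp29 (1.43), Creld2 (1.36), Os9 (0.94), Syvn1 (0.75), Hyou1 (0.72), Eif2ak3 (0.61), P4hb (0.55), Ppib (0.48) and Xbp1 (0.28). They were below 0 for Canx (-0.34), Manf (-0.43), Spcs2 (-0.66), Ssr1 (-0.97), Derl2 (-1.41), Sec61b (-1.85), Dnajb9 (-1.89) and Erp44 (-1.98). Adjusted p-values ran from 6e-07 (Erp29) to 0.0143 (Xbp1), and the listed genes had been picked for a genotype difference on polysomes. After the GC adjustment 10 of the 19 were called, against 2408 of all 5780 genes tested. Relative to genes of like GC content, Canx then turned higher (0.71, called). P4hb (-0.01), Syvn1 (-0.15) and Xbp1 (-0.18) changed sign and were not called.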

How the results depend on the processing

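In total RNA, 8 falls (Hspa5, Hsp90b1, Calr, Canx, P4hb, Pdia3, Pdia4 and Pdia6) kept their direction and call under every alternative that could test them. All 3 rises were lost with DESeq2. The count of 14 called ER genes became 18 with the length adjustment (5 higher, 13 lower), where 4426 of all 14594 genes tested were called. It was 16 with upper-quartile scaling or a floor of 5 CPM (5 higher in each), with 4448 of 14594 and 4422 of 11534 called in all. Leaving out any 1 library lowered it. It was 11 with DESeq2 (which called 2944 genes in all, against 4485). With all 8 libraries it was 5 of the 19 testable (1286 genes in all), where fewer members have a row. Of the 19 called on polysomes, 13 to 19 were called with 1 library left out and 12 after the GC adjustment (2741 genes in all, against 5760). Of the 17 in the interaction, 16 to 18 and 10 were (2408 in all, against 5171). Between WT fractions the count of 1 became 2 with RLE or upper-quartile scaling, 6 with limma-voom (1177 in all, against 693), 4 after the GC adjustment, and 1 to 8 with 1 library left out (179 to 1998 in all).

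The GC adjustment reversed the polysomal log2 fold changes of Hsp90b1 (0.61), Canx (0.54), Pdia4 (0.053), Xbp1 (-0.027), Hyou1 (-0.083), Syvn1 (-0.10), Os9 (-0.23) and P4hb (-0.28), and the interactions of Hsp90b1 (0.78), Canx (0.71), P4hb (-0.0080), Syvn1 (-0.15) and Xbp1 (-0.18), and Pdia4 gained a call in the interaction (0.41); the cause was not tested. With the replicate number as a block, 13 ER genes were called in total RNA, 19 on polysomes, 1 between WT fractions and 17 in the interaction. Among all genes tested these counts were 4369 of 14594, 5771 of 5777, 598 of 5780 and 5128 of 5780. The call that the block ended was that of Xbp1 in total RNA. Deviations of same-numbered dKO and WT libraries correlated at -0.0414 in total and 0.0615 in polysomal RNA. Those of same-numbered polysomal and total libraries correlated at -0.0268 in WT and 0.014 in dKO. Each value rests on a single difference per group, so it cannot show whether the numbers pair the libraries. The lower polysomal sums of the dKO libraries limit precision there. The dKO polysomal libraries also differed from each other more than any other pair (chi-square per degree of freedom 24.8, against 2.88 to 3.19). In the fits over all 8 libraries this pair shares 1 estimate of the spread with the other groups.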
